A study of Oryza sativa with 6 samples.

Results

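OsHAK7 and OsHAK22 are 2 rice genes for potassium transporters of the HAK family. Their probe sets, the groups of short probes that together read 1 transcript, were taken as every probe set that the array's gene annotation assigns to a gene with either name as symbol or synonym. This gave 4 probe sets, 2 for each gene, of 57258 tested probe sets, and 2 genes of the 17905 that had a probe set. Both genes were chosen because earlier results of these data showed them lower in the mutant. Their differences between the genotypes are therefore a description, with no test.

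RNA came from rice seedlings 11 days old. They were on agar with 3% sucrose from germination onwards. Days had 14 h of light at 28 °C and 10 h of dark at 24 °C. The 3 mutant samples carried a T-DNA insertion mutation of CHR729, which belongs to the CHD class of chromatin remodellers, and the 3 wild-type samples were of the cultivar Hwayoung. Each sample, called a biological replicate in the labels, was hybridized to its own Affymetrix rice array. The labels give neither the cultivar behind the mutant, nor the number of insertion lines, nor which organs were collected. The transcript of CHR729 itself was not analysed here, since no probe set of the annotation used carries that name.

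HAK transporters, also called KUP or KT, are membrane proteins that carry potassium ions into cells or between the vacuole and the cytosol, in many cases together with protons. Potassium is the main inorganic cation of plant cells and serves turgor, growth and the balance of charge. In rice, OsHAK1 and OsHAK5 are known for high-affinity uptake by roots when potassium is scarce, while OsHAK7 is placed with OsHAK10 in another branch of the family. Shaker channels such as AKT1 form a further route of potassium uptake.

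The signals are MAS5 values on a linear scale in arbitrary units, and the median signal of an array lay between 67.6 and 71.1. Differences are given on the scale of log2(signal + 32) as mutant minus wild type, with the standard error (SE) of a model fitted to all tested probe sets. The added 32 shrinks differences of dim probe sets. The probe sets differ in their probes, so a signal is compared between arrays and not between probe sets.

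OsHAK7 was lower in the mutant in both of its probe sets, by about the same ratio. In the brighter one, wild-type replicates 1 to 3 had signals of 2729, 2841 and 2393, and mutant replicates 1 to 3 had 1679, 1445 and 1538. Every mutant array lay below every wild-type array, and the highest mutant signal was 70.2% of the lowest wild-type signal. The means were 2654 ± 233 in wild type and 1554 ± 118 in the mutant (SD, n = 3 each), a mean signal 41.4% lower. The log2 difference was -0.76 (SE 0.10).

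The dimmer OsHAK7 probe set, whose identifier ends in _x_at, had 1349, 1300 and 1096 in wild type and 833.4, 677.2 and 772.2 in the mutant. Again the groups did not overlap, and the highest mutant signal was 76.0% of the lowest wild-type signal. The means were 1248 ± 134 and 760.9 ± 78.7 (SD, n = 3 each), with a log2 difference of -0.69 (SE 0.11). The suffix _x_at marks a probe set in which some probes also match other transcripts, whereas the brighter OsHAK7 probe set has no such mark. In both probe sets wild-type replicate 3 was the lowest wild-type array and mutant replicate 2 the lowest mutant array. The SD was 7.60% to 10.7% of the mean in these 4 sets of 3 arrays.

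OsHAK22 was lower by a smaller amount, and in only 1 of its 2 probe sets were the groups apart. The brighter one had 268.4, 225.3 and 215.4 in wild type and 190.1, 165.3 and 164.4 in the mutant. All mutant arrays lay below all wild-type arrays, with the highest mutant signal at 88.3% of the lowest wild-type signal. The means were 236.3 ± 28.2 and 173.3 ± 14.6 (SD, n = 3 each), a mean signal 26.7% lower, and the log2 difference was -0.38 (SE 0.10). This probe set carries the _x_at mark, so its signal may hold other transcripts, and their share was not tested.

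The second OsHAK22 probe set was below the array median on all 6 arrays. It had 38.5, 36.2 and 30.7 in wild type and 33.0, 30.1 and 31.9 in the mutant. Here the groups overlapped, and the log2 difference was -0.07 (SE 0.07). At signals near the added 32 this difference is damped, and with an added 1 in its place it was -0.14. The unmarked OsHAK22 probe set thus gave no separation of the genotypes at its low signal, whereas the OsHAK22 difference rests on the marked one.

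**Figure D1:**
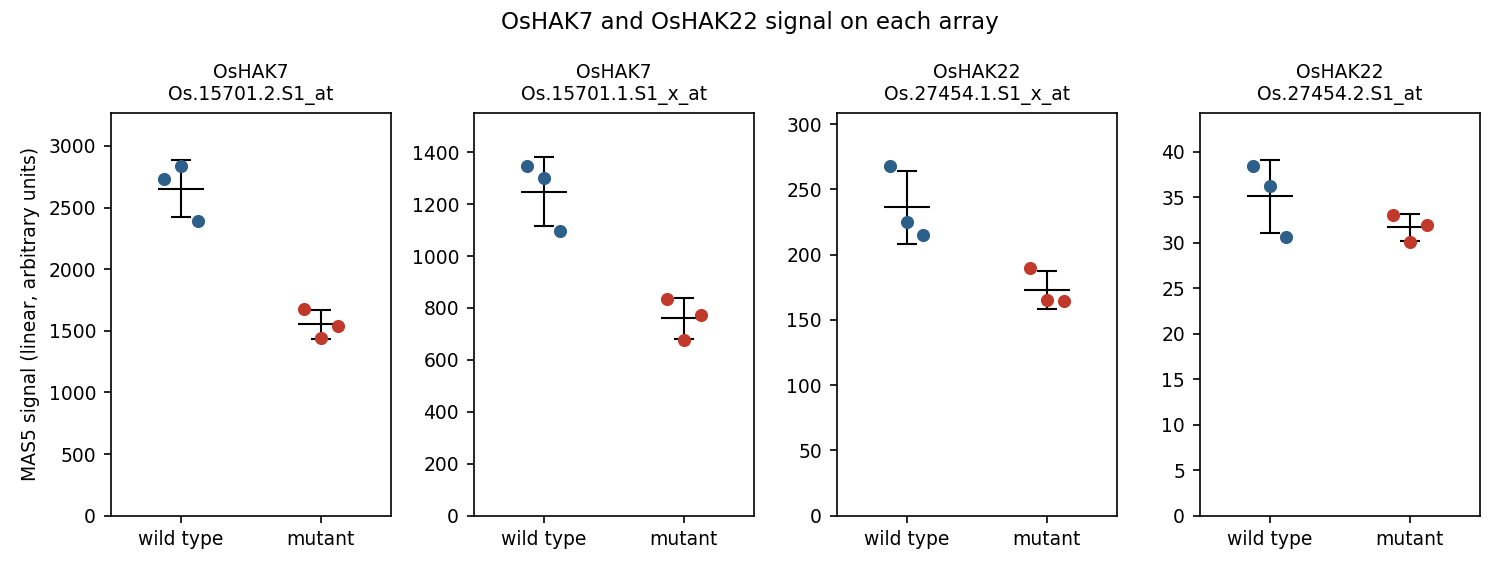
Signal of the 4 probe sets of OsHAK7 and OsHAK22 on a linear axis from 0 (MAS5 units), with 1 point per array, wild type in blue and mutant in red; horizontal bars are means and error bars the SD of 3 arrays. The genotypes are apart in both OsHAK7 panels and in the brighter OsHAK22 panel, and overlap in the dim OsHAK22 panel, where all signals lie between 30.1 and 38.5.

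Of the 4 probe sets, 3 had every mutant array below every wild-type array. Among all tested probe sets 13.1% had this pattern, and among those that name 1 gene 18.8%. Nothing is read from that count, since the genes were chosen on this contrast. A difference at least as far below 0 as that of the brighter OsHAK7 probe set was seen in 588 tested probe sets (1.03%), and for the dimmer one in 743 (1.30%). For the brighter OsHAK22 probe set the number was 2580 (4.51%), and for the dim one it was 16799 (29.3%). OsHAK7 thus lay near the lower end of all differences and OsHAK22 less far down. These places follow in part from the choice of the genes on this contrast and are no test. Of the tested probe sets 34727 name no gene, and the place among those that name 1 gene was not taken.

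The other HAK genes were set beside them. The rice gene table names 25 HAK genes, of which 22 had a probe set, which leaves 20 genes with 25 probe sets besides OsHAK7 and OsHAK22. None of the 25 passed the threshold of 0.05 on the limma p after Benjamini-Hochberg adjustment across the 57258 probe sets. Over all tested probe sets 9.91% passed, 4.42% lower and 5.48% higher in the mutant, and among those that name 1 gene 18.1% passed. At an unadjusted limma p under 0.05, 5 of the 25 were lower and 2 higher, which is 28.0%, against 22.2% of all tested probe sets and 36.0% of those that name 1 gene. Because OsHAK7 and OsHAK22 were picked out of the family for their difference, the absence of calls among the rest is in part set by that choice.

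Of the 25 other HAK probe sets, 18 (72.0%) had a difference below 0, against 51.4% of all tested probe sets and 48.7% of those that name 1 gene. Their median log2 difference was -0.10, against -0.0045 over all tested probe sets, and the list as a whole was not tested. Their range ran from -0.39 to 0.45, so both OsHAK7 probe sets lay below all of them. The brighter OsHAK22 probe set did not: at -0.38 it lay beside a probe set of OsHAK1 at -0.39.

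Among genes known for potassium uptake, OsHAK1 had signals of 614.5, 605.5 and 596.3 in wild type and 481.2, 513.7 and 380.4 in the mutant in its brighter probe set, which carries the _x_at mark. The groups did not overlap, and the log2 difference of -0.39 (SE 0.11) had an adjusted p of 0.0573 in limma, just above the threshold. The brighter OsHAK22 probe set, listed here as lower, had nearly the same difference with a slightly smaller SE. OsHAK22 was chosen on this contrast, so no p is given for it. The other OsHAK1 probe set had -0.32 (SE 0.13, adjusted p = 0.161), with overlapping groups.

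The bright probe set of OsHAK5 had 5641, 6329 and 7107 in wild type and 5756, 5768 and 5102 in the mutant. These groups overlapped, and the difference was -0.19 (SE 0.10, limma adjusted p = 0.278). A dim OsHAK5 probe set had 0.19 (SE 0.16, adjusted p = 0.562). OsHAK16, known for potassium uptake and for its transfer from root to shoot, had 132.6, 150.2 and 123.5 in wild type and 105.3, 113.8 and 94.4 in the mutant. Its groups did not overlap, with a difference of -0.29 (SE 0.09, adjusted p = 0.0788), which did not pass.

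OsHAK10, the branch mate of OsHAK7, pointed the other way. In its brighter probe set it had 322.4, 254.3 and 354.6 in wild type and 350.0, 429.0 and 530.1 in the mutant. The lowest mutant array lay within the wild-type range, and the difference of 0.45 (SE 0.15) did not pass (limma adjusted p = 0.103). Its second probe set had 0.32 (SE 0.14, adjusted p = 0.215). OsHAK9 also had a positive difference, 0.36 (SE 0.16, adjusted p = 0.233), with 260.8, 381.4 and 455.5 in wild type and 426.0, 517.4 and 464.2 in the mutant.

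OsHAK25 had 816.3, 805.4 and 719.5 in wild type and 662.0, 581.9 and 621.7 in the mutant, without overlap. Its difference was -0.31 (SE 0.10), with a limma adjusted p of 0.0684. OsHAK13 was also without overlap, at -0.26 (SE 0.09, adjusted p = 0.117), from a signal of 86.8 ± 12.4 in wild type and 67.2 ± 4.18 in the mutant. Together with OsHAK1 and OsHAK16 these were the 4 other HAK probe sets whose mutant arrays all lay below the wild-type arrays, where 13.1% of all tested probe sets had this pattern. OsHAK14 was the 1 probe set with the groups apart in the other direction, at low signals of 45.8 ± 2.96 in wild type and 53.0 ± 4.74 in the mutant (SD, n = 3 each), a pattern of 14.0% of all tested probe sets and 21.6% of those that name 1 gene.

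OsHAK4 and OsHAK12, both known in cereals for carrying sodium, were dim on average in both genotypes and had differences of -0.18 (SE 0.12) and -0.00036 (SE 0.07). OsHAK18, known for the return of potassium in the phloem, had nearly equal means of 350.2 ± 16.5 and 343.4 ± 18.7 and a difference of -0.03 (SE 0.09). OsHAK15 had -0.10 (SE 0.10) and OsHAK2 had -0.19 (SE 0.13). OsHAK3 had -0.25 (SE 0.15) in its brighter probe set, OsHAK23 had -0.25 (SE 0.12), and OsHAK11 had -0.09 (SE 0.12). OsHAK17 had 0.06 (SE 0.20) and -0.14 (SE 0.17) in its 2 probe sets, the largest SEs among these genes. OsHAK20, OsHAK26, OsHAK27 and a second OsHAK3 probe set had mean signals below the array medians in both genotypes, where 8 of the 25 lay, and differences between -0.15 and 0.08.

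**Figure D2:**
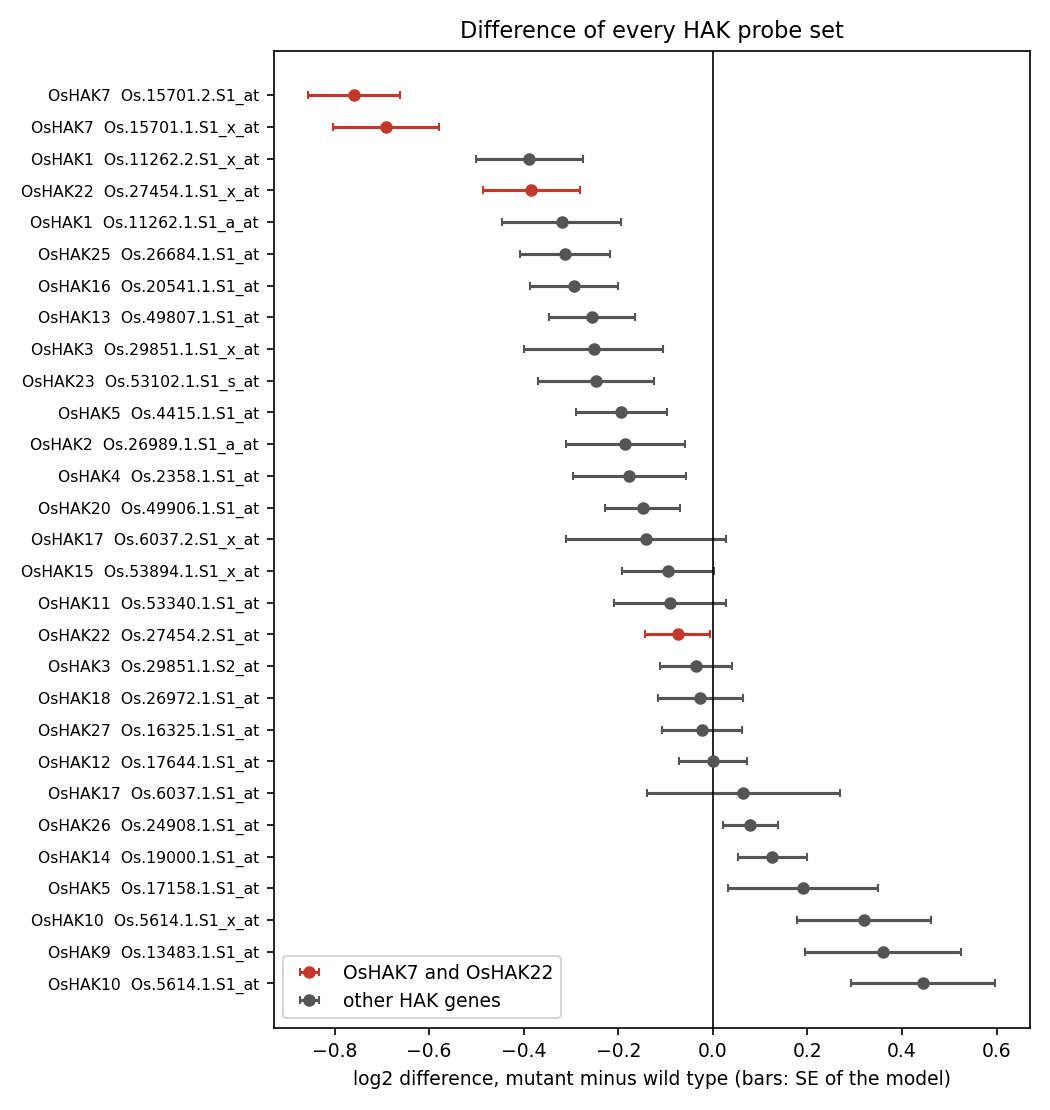
Log2 difference, mutant minus wild type, of every HAK probe set (points) with the SE of the model (bars), sorted from the most negative at the top to the most positive; OsHAK7 and OsHAK22 are red and the other HAK genes grey. Both OsHAK7 probe sets, at -0.76 and -0.69, stand apart from the rest, whereas the OsHAK22 probe sets, at -0.38 and -0.07, lie among the other genes and OsHAK10 lies at the opposite end.

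Genes of other potassium and sodium transport routes, listed by symbol, gave 11 genes with 16 probe sets. Of these 2 were higher and 1 lower at the threshold, which is 12.5% and 6.25%, against 5.48% and 4.42% of all tested probe sets and 9.96% and 8.16% of those that name 1 gene. The lower one, OSA15, is a photosystem gene taken in by its symbol. Without OSA15, 10 genes with 14 probe sets remain, of which 2 (14.3%) were higher and 0 lower in limma, with 2 higher and 1 lower at an unadjusted p under 0.05. The median log2 difference was -0.05 with or without OSA15, against -0.0045 over all tested probe sets. No members were found for the antiporter names NHX, KEA, CHX and SOS1.

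Among channels, KOB1, which encodes a beta subunit of shaker potassium channels, rose from 709.8, 790.0 and 811.4 in wild type to 1008, 1097 and 1247 in the mutant. The groups did not overlap, and the log2 difference was 0.52 (SE 0.10, limma adjusted p = 0.0120). The call was lost without mutant replicate 2 (adjusted p = 0.0615) and without mutant replicate 3 (adjusted p = 0.0565). A dim KOB1 probe set had -0.10 (SE 0.07, adjusted p = 0.413). AKT1, the inward channel of root potassium uptake, had 786.6 ± 60.6 and 743.2 ± 11.1 and a difference of -0.08 (SE 0.09), and TPKA, a potassium channel of vacuoles, had -0.03 (SE 0.09). TPKB, a related vacuolar channel named here after its values were seen, had 62.9, 110.4 and 130.3 in wild type and 83.7, 69.2 and 33.0 in the mutant. Its difference of -0.51 (SE 0.22) was the most negative of the list besides OSA15, but the groups overlapped and it did not pass (limma adjusted p = 0.213).

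CIPK23, the kinase that activates AKT1, had -0.11 (SE 0.09) and -0.20 (SE 0.11) in its 2 probe sets, neither of which passed. The dim HKT1;5, a gene for a sodium transporter of the xylem, had -0.05 (SE 0.07). The pump symbols matched a gene named a7, whose bright probe set had -0.10 (SE 0.08, adjusted p = 0.507) and whose dim one rose from 28.5 ± 2.13 to 43.7 ± 2.19 (0.32, SE 0.07, adjusted p = 0.0119). That rise missed the threshold without mutant replicate 2 (adjusted p = 0.0653). The match OSA15 fell from 1631 ± 172 to 930.2 ± 141 (-0.79, SE 0.12, adjusted p = 0.00314), with 0.07 (SE 0.11, adjusted p = 0.789) in a second probe set. The gene table also calls OSA15 PSAG, a photosystem I subunit gene, so it is no pump. Every mutant array lay below every wild-type array in 4 of the 16 probe sets: both of CIPK23, the bright a7 one and the brighter OSA15 one. The reverse held in 2 of the 16. Over all tested probe sets these patterns were seen in 13.1% and 14.0%, and among those that name 1 gene in 18.8% and 21.6%.

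**Figure D3:**
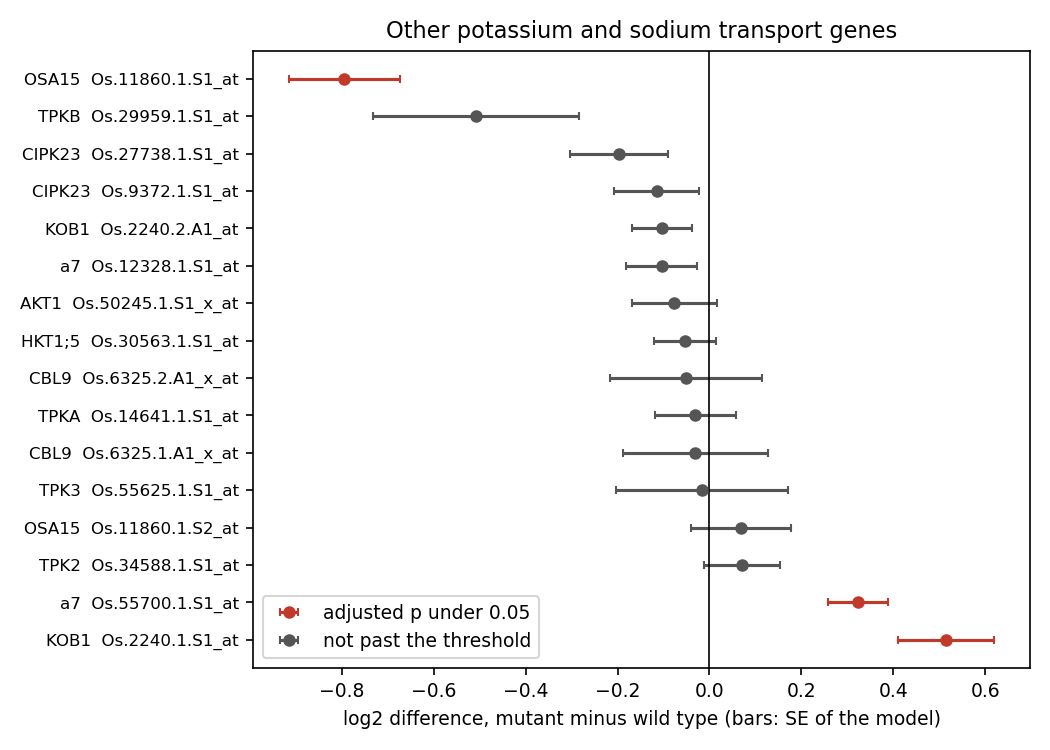
Log2 difference, mutant minus wild type, of the 16 probe sets of other potassium and sodium transport genes (points) with the SE of the model (bars); red marks a limma adjusted p under 0.05. KOB1 at 0.52 and a dim a7 probe set at 0.32 lie above 0, OSA15, a photosystem gene, lies at -0.79, TPKB lies at -0.51 with a wide bar, and AKT1 and TPKA lie within 1 SE of 0.

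The genes with the most similar pattern were sought by the root mean square difference of log2 values over the 6 arrays. Each probe set's wild-type mean was subtracted first. The measure includes the step between genotypes, on which both genes were chosen, so a close value needs a step of like size. Shared regulation was not tested. For the brighter probe set of OsHAK7, 2553 probe sets with a gene name and a signal at or above the array median were compared. The closest was a probe set of CAT-B, a catalase gene, at 0.06, followed by HAP3I, a gene for a subunit of the CCAAT-binding factor, at 0.10, and AAH, a gene for allantoate breakdown, at 0.10. The second OsHAK7 probe set was at 0.07 from the first.

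For the brighter probe set of OsHAK22, 2554 probe sets were compared. The closest was ETF-QO, a gene of mitochondrial electron transfer from amino acid breakdown, at 0.04. OAT, an ornithine aminotransferase gene, and another CAT-B probe set were also at 0.04. The log2 difference of CAT-B was -0.74 in the probe set close to OsHAK7 and -0.39 in this one. The ETF-QO probe set and the CAT-B probe set close to OsHAK7 carry the _x_at mark. The dim OsHAK22 probe set was at 0.23.

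**Figure D4:**
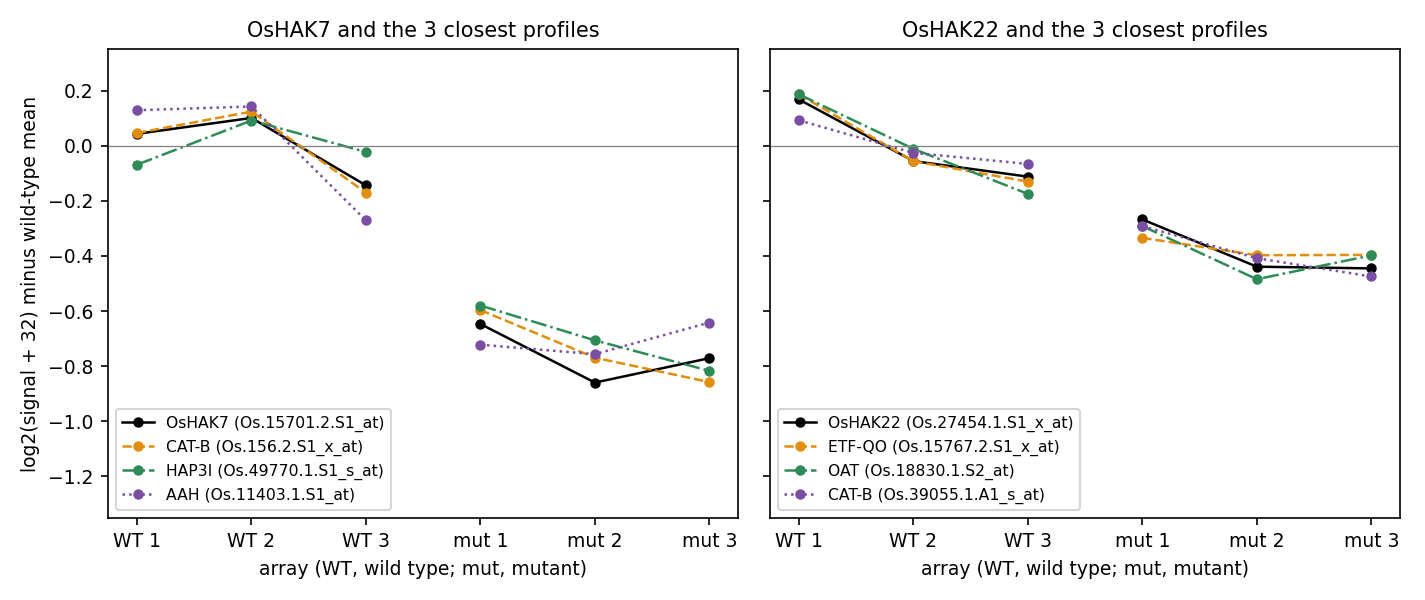
Log2(signal + 32) minus the wild-type mean on each of the 6 arrays (horizontal axis) for the brighter probe set of OsHAK7 (left) and OsHAK22 (right) and for the 3 probe sets closest to each; lines join arrays of 1 genotype and imply no order. The OsHAK7 panel steps down by about 0.76 between genotypes and the OsHAK22 panel by about 0.38.

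The nearest protein-coding genes in the gene table, up to 2 on each side, were chosen for their place and measured in 8 probe sets of 7 genes. None passed the threshold in limma, and 1 had an unadjusted p under 0.05, against 9.91% and 22.2% of all tested probe sets. That 1 belonged to CWZF7, directly next to OsHAK7, with -0.33 (SE 0.12, adjusted p = 0.122) and -0.20 (SE 0.10, adjusted p = 0.291) in its 2 probe sets. LOC4344234 on the other side of OsHAK7 had 0.07 (SE 0.09). The genes directly beside OsHAK22, LOC4342172 and LOC4342174, had -0.15 (SE 0.08) and 0.05 (SE 0.07).

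Seedlings hold roots and shoots, and in such samples fewer cells of a type and less RNA per cell cannot be told apart. The labelled seedling tissue had the shoot genes RBCS and CAB2R, for the small subunit of Rubisco and a light-harvesting protein, at signals of 15987 ± 112 and 11217 ± 289 in wild type and 16098 ± 438 and 11588 ± 580 in the mutant, with 9956 ± 1395 and 10163 ± 469 in a second CAB2R probe set. The log2 difference of this brightest RBCS probe set was 0.01 (SE 0.06). Dimmer probe sets of the same gene had -0.15 (SE 0.12), -0.12 (SE 0.13) and -0.08 (SE 0.10). Their groups overlapped and none passed in limma. The summed signal of 11 shoot probe sets of 4 genes lay between 75170 and 79590 in wild type and between 65531 and 75812 in the mutant, and 1 of the 11, of the Rubisco activase gene RCA, was lower at -0.45 (SE 0.10, limma adjusted p = 0.0208). The 3 other RCA probe sets had -0.21, -0.29 and -0.29, with limma adjusted p of 0.159, 0.0707 and 0.0502, and no overlap between the groups. At an unadjusted limma p under 0.05, 4 of the 11 were lower and 0 higher (36.4%), and all 4 were of RCA. In either direction that p was reached by 22.2% of all tested probe sets and 36.0% of those that name 1 gene. Of the 57258 tested probe sets 6133 were lower at that p, and 4.42% passed the threshold as lower. The summed signal of 10 root probe sets lay between 885.3 and 978.3 in wild type and between 776.7 and 895.0 in the mutant. None of the 10 passed, 2 (20.0%) had an unadjusted limma p under 0.05, and 8 were below the array medians in both genotypes.

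No marker was listed at 0 on all arrays, which does not show that each was detected, since detection calls were not used. Of the root markers, LSI1, a silicon channel gene of roots, had 341.9 ± 19.5 and 306.5 ± 23.7 (-0.14, SE 0.09), PT2 had -0.07 (SE 0.10) and PHT1-2, a phosphate transporter gene, had -0.15 (SE 0.08). The PT2 probe set belongs to a gene that the gene table also names GRF4, a growth-regulating factor, so it does not mark roots. Without it, the summed signal of 9 root probe sets lay between 616.0 and 656.7 in wild type and between 522.3 and 597.7 in the mutant, and these ranges did not overlap. The root sum was thus lower on every mutant array only without PT2, and with PT2 the sums overlapped. LSI1 overlapped on its own, and 8 of the 9 were below the array medians in both genotypes. All mutant arrays lay below all wild-type arrays in 2 of the 9, a pattern of 13.1% of all tested probe sets. A difference below 0 was seen in 9 of the 10 root probe sets (90.0%), or 8 of 9 without PT2 (88.9%). It was seen in 7 of the 11 shoot probe sets (63.6%), against 51.4% of all tested probe sets. The median log2 difference was -0.11 for root, -0.14 without PT2 and -0.12 for shoot, against -0.0045 over all tested probe sets. These lists were not tested. The shoot sum was lower on 2 of the 3 mutant arrays than on any wild-type array. All shoot probe sets without overlap were of RCA, and those of the other shoot genes overlapped. The part of root and shoot in the OsHAK7 and OsHAK22 differences was not tested. The replicates are called biological in the labels, without saying how the plants were pooled.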

How the data were processed

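RNA of 6 seedling samples was measured on 6 Affymetrix rice arrays. The deposited intensity of each probe set is linear and was made by the authors with MAS5, per the submitters' processing notes. For the version and scaling target: not given in the sources used here. Detection calls were not used here. Of 57381 probe sets, 123 controls were left out. Signals were taken as log2(signal + 32) without a filter and compared between mutant and wild type with limma 3.58.1 in R 4.3.3 (intensity trend, 2-sided, Benjamini-Hochberg over 57258 probe sets, threshold 0.05). A permutation test was not used. The procedure was tested on simulated data.

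Probe sets were named from the array's public annotation (22436 name 1 gene, 95 several, 34727 none) and through gene identifiers from the rice gene table of assembly ASM3414082v1, with Python 3.11.15, pandas 2.3.3 and matplotlib 3.10.9. The genes described and the lists were chosen with earlier results of these data known. Named were all HAK probe sets, members of the transport list that passed or were brightest in their role group, the 3 brightest markers per list and the 3 closest profiles; neighbouring genes, RCA and the lists without OSA15 or PT2 were added after the values were seen. Alternatives were offsets of 1 and 128, quantile and median normalization, leaving out the 40% dimmest probe sets, no trend, array weights, a replicate block and leaving out each array.

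Same-numbered arrays of the genotypes had deviations correlated at 0.0066, -0.17 and 0.09, so no consistent shared deviation was seen. Whether same-numbered samples were grown or processed together is not given in the labels. For arrays, their number, 3 per group, limits the precision.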

Additional observations from a re-analysis of the deposited data

How the results depend on the processing

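The OsHAK7 and OsHAK22 differences stayed below 0 and within 1 SD of the reported value in all 14 alternatives, or 13 for the dim OsHAK22 probe set, which the filter removes. The brighter OsHAK7 probe set ranged from -0.83 to -0.71, the dimmer one from -0.78 to -0.61, the brighter OsHAK22 probe set from -0.44 to -0.27 and the dim one from -0.14 to -0.03. With the replicate block these differences were, by construction, the reported -0.76, -0.69, -0.38 and -0.07. The same holds, by construction, without the intensity trend and, for the probe sets it keeps, with the filter on the 40% dimmest. Where the groups do not overlap, leaving out 1 array cannot turn the sign, so the stable sign there is no added support. The replicate block gave 2730 probe sets higher and 2385 lower, against 3140 and 2532. Leaving out 1 array each gave 1358 to 3511 higher and 916 to 2838 lower. The counts moved by over 1.5 times when mutant replicate 2 was dropped (1358 higher, 916 lower), likewise mutant replicate 3 (1716 higher, 1071 lower) and wild-type replicate 2 (1779 higher, 1356 lower). The cause was not tested.

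The statement that no other HAK probe set passed is not firm. With limma, 1 was lower after subtraction of array medians (OsHAK1), 2 without the 40% dimmest probe sets, which lowers the number tested, 2 without the intensity trend (OsHAK1 and OsHAK25 in both) and 1 with array weights (OsHAK25). Leaving out 1 array gave 0 to 1 lower and 0 to 1 higher: OsHAK25 lower without wild-type replicate 3, a dim OsHAK5 probe set higher without wild-type replicate 1 and OsHAK10 higher without mutant replicate 1. In the transport list 1 was higher without the 40% dimmest probe sets, since that filter removes the dim a7 probe set, while KOB1 still passed in limma. Leaving out 1 array gave 0 to 2 higher and 1 lower throughout in that list. Of 566 recomputed values of single probe sets 22, in 11 probe sets, had the other sign. These 11 had reported differences within 0.09 of 0 and did not pass, and none of the 22 values passed. The dim OsHAK22 probe set limits what can be said of that gene, because its difference depends on the offset.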
